A study of Mus musculus with 2 samples.

Results

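The non-cycling committed myoblasts described here were 395 cells of the 9349 filtered cells (4.23%, 95% interval 3.83 to 4.65) of a mouse culture of induced myogenic progenitor cells (iMPC). They were chosen by their own molecule counts in that library. Each had at least 10 unique molecular identifiers (UMIs, each standing for 1 captured RNA molecule) of Myog, none of Pax7, at most 9 of Myh3, at most 1 of Ckm and at most 1 of Top2a. A filtered iMPC cell had at least 8036 UMIs and at least 500 genes, with no more than 20% of its UMIs from mitochondrial genes. The series held 1 further library of mouse embryonic fibroblasts (MEF), with 6012 cells kept by the same gene and mitochondrial limits alone, and 15361 filtered cells in all. Both cultures carried the reporter Tg:Pax7-nGFP on a C57BL6;DBA2 background. The iMPC library came from cells made with MyoD and the treatment that the labels abbreviate F/R/C, and kept in F/R/C medium, while the MEF culture was kept in MEF medium. Each group held 1 library, so that no replicate check of any difference was possible and no test was made. All intervals below are exact, at 95%, and cover counting error only.

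Skeletal muscle forms when proliferating progenitors marked by Pax7 leave the cell cycle, switch on the transcription factor myogenin (Myog), and fuse into fibres that assemble sarcomeres. Committed myoblasts, or early myocytes, are the mononucleated cells between these states: they carry Myog and the fusion proteins before the bulk of the contractile apparatus is made. Notch signalling holds progenitors back from this step, and the ligand Dll1 on committing cells can signal to neighbouring progenitors.

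The promoters of Myog and of 3 genes that were high with it in these cells are shown, because myogenic factors bind a 6-base E-box. Each line gives the 250 bases before the RefSeq start of transcription on GRCm38.p6, from 5′ to 3′ on the gene's strand, with every CANNTG in capitals. The windows are chr1:134289754-134290003 on the plus strand for Myog, chr17:15376933-15377182 on the minus strand for Dll1, chr17:25570687-25570936 on the minus strand for Sox8 and chrX:143518341-143518590 on the plus strand for Pak3. Dll1 has 2 starts and Pak3 has 3 in the RefSeq table, and 1 of each is shown. The last 15 bases of the Myog window lie inside the longer GENCODE M21 gene.
Myog: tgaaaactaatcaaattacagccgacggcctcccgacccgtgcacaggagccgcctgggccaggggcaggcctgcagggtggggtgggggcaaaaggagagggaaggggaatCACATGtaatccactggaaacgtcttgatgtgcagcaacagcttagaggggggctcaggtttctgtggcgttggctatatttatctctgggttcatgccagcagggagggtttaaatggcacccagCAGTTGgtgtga
Dll1: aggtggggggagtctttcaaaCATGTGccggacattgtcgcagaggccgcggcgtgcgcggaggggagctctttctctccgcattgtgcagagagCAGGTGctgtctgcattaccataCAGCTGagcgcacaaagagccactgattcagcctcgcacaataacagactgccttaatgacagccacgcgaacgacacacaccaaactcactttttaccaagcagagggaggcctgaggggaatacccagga
Sox8: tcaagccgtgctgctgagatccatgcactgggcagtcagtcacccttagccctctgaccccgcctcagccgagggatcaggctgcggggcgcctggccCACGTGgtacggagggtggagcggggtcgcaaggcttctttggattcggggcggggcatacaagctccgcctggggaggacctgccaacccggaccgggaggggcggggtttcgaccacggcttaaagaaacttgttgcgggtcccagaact
Pak3: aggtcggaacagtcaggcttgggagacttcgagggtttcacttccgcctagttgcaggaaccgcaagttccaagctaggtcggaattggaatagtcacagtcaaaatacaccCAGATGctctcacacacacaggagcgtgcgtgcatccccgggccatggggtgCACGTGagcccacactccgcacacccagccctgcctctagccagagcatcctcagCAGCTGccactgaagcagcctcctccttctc
The Myog window held 2 E-boxes, the Dll1 window 3, the Sox8 window 1 and the Pak3 window 3. The form CAGCTG, which myogenic factors favour, occurred 1 time each in the Dll1 and Pak3 windows and 0 times in the other 2. Among 32817 promoter windows of the same length, 66.2% held a CANNTG, which reads the same on both strands, and 13.0% held that form. Windows of other genes named below were also searched and are not printed. Those of Sema6b, Unc5c, Zswim6 and Rgs16 held 0 E-boxes. Those of Olfml2b, Zbtb18 and Rreb1 held 1, 1 and 2, and CAGCTG occurred 0 times in any of them. The printed windows are therefore no fair sample of the genes high in these cells. A match describes the letters and does not show a bound site. No window was used for Mymk.

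The limits were applied in turn, and 2738 filtered iMPC cells had at least 10 Myog UMIs, 2141 of these had no Pax7 UMI, 1809 of these had at most 1 Top2a UMI, 808 of these had at most 1 Ckm UMI and 395 had at most 9 Myh3 UMIs. The 395 cells held from 10 to 130 Myog UMIs with a median of 36, and from 0 to 9 Myh3 UMIs with a median of 2. Their median depth was 18907 UMIs per cell (8109 to 41833), against 21070 in the 8954 other iMPC cells. At the Myog limit the 13 cells with 10 or 11 UMIs had 628 Myog CPM (counts per 1000000 UMIs of the set), and the 22 cells just outside, with 8 or 9 UMIs, had 588 CPM. These Myog levels follow from the limit itself. In the same cells inside and outside, Dll1 lay at 32.5 and 47.2 CPM, Sox8 at 41.8 and 37.7 CPM and Mymk at 139 and 91.2 CPM. At the Myh3 limit the 28 cells with 8 or 9 UMIs had 586 Mymk CPM, and the 38 cells with 10 or 11 UMIs that met the other limits had 530 Mymk CPM. At the other limits Dll1 lay at 65.9 CPM in the 66 cells with 1 Top2a UMI and 45.7 CPM in the 31 with 2. It lay at 54.9 CPM in the 82 cells with 1 Ckm UMI and 52.3 CPM in the 19 with 2, and at 66.6 CPM in the 61 cells that failed only by 1 Pax7 UMI. Other markers differed more at these limits. Sox8 lay at 56.4 and 30.02 CPM inside and outside the Top2a limit and at 43.6 and 21.4 CPM inside and outside the Ckm limit, and Mymk lay at 403 CPM in the 395 cells and 219.7 CPM in those that failed only by 1 Pax7 UMI. The cells just outside each limit carried all 3 of these markers, at levels lower than, like or higher than those inside. Levels higher outside included Sox8 at the Myh3 limit (38.5 against 31.5 CPM inside) and Mymk at the Ckm limit (654 against 518 CPM inside).

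Beside all other iMPC cells, 3 neighbouring sets were used. The 561 resting Pax7-positive cells had at least 2 Pax7 UMIs, no Myog and at most 1 Top2a UMI. The 179 cycling Myog-positive cells met every limit of the committed myoblasts except that they had at least 2 Top2a UMIs, and the 413 Myh3-high cells met every limit except that they had at least 10 Myh3 UMIs. Their median depths were 15779, 24913 and 28470 UMIs per cell. A further 277 cells with at least 10 UMIs of Dcn, a matrix proteoglycan of fibroblasts, and no Pax7 served as cells that should lack muscle RNA. They are no pure measure of background, since 96 of them had a Myog UMI, up to 85 in a cell.

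**Figure D1:**
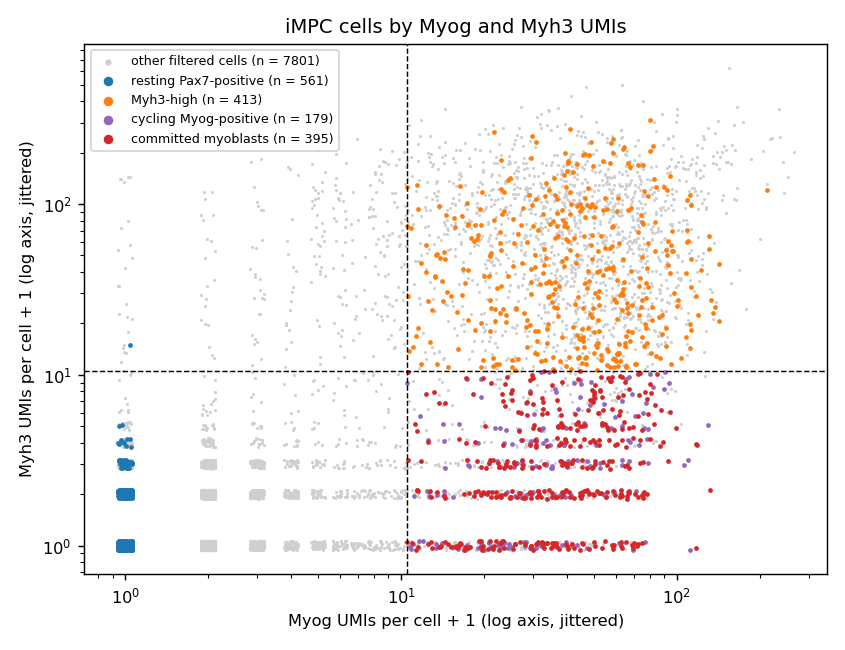
UMIs of Myog (horizontal) and of Myh3 (vertical) in each filtered iMPC cell, both plus 1 on log axes and jittered, with dashed lines at the limits of 10 Myog and 9 Myh3 UMIs. The 395 committed myoblasts fill the lower right field, where the 179 cycling Myog-positive cells overlap them, and the 413 Myh3-high cells lie above them with no gap at the line. Grey cells in the upper right field failed on another gene, such as Ckm.

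The labelled identity was checked on the 5 markers that the limits did not use. These were Dll1, the transcription factor Sox8, the semaphorin Sema6b, the netrin receptor Unc5c and the fusion protein Mymk (myomaker), all picked with earlier results of these data known. With each cell thinned to 5000 UMIs, at least 3 of the 5 were found in 65 committed myoblasts (16.5%, 95% interval 12.9 to 20.5), in 12.3% (7.87 to 18.02) of cycling Myog-positive cells, in 5.81% (3.76 to 8.52) of Myh3-high cells and in 0.994% of all other iMPC cells. None of the resting or Dcn-high cells had 3. The intervals of the committed and cycling cells overlap. No marker of the 5 was found in 47 committed myoblasts (11.9%) and in 8.72% of Myh3-high cells at that depth. Single committed myoblasts mostly showed 1 or 2 of the 5 (145 and 138 cells).

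Lists for glia, endothelium, immune cells and epithelium, with 6 genes each, had no gene at 10 CPM in the committed myoblasts or in any set compared with them. Their summed levels in the committed myoblasts were 3.592, 0.532, 1.996 and 0.266 CPM. Fibroblast markers were low but not absent. Dcn stood at 8.25 CPM (95% interval 6.32 to 10.6), against 93.4 CPM in resting cells and 1686 CPM in Dcn-high cells, and Col1a1, a chain of type I collagen, stood at 3.06, 40.5 and 760.5 CPM in the same 3 sets.

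Against all other iMPC cells, 177 of 7648 genes were at least 2-fold higher in the committed myoblasts and 1152 were at least 2-fold lower, among genes that reached 10 CPM in the committed myoblasts or the other cells and without the 5 genes of the limits. These shares are 2.31% and 15.1%. The largest ratios among genes at 50 CPM or more belonged to Sox8, Olfml2b, which encodes a secreted olfactomedin-domain protein, and Rspo3, a secreted amplifier of Wnt signalling. Next came Dll1 and Pak3, a kinase that acts downstream of small GTPases. Olfml2b was at 231 CPM (95% interval 220.2 to 242) and 38.9 CPM in the other cells, a log2 ratio of 2.57 (95% interval 2.496 to 2.65). Rspo3 was at 58.4 and 10.3 CPM, a log2 ratio of 2.51 (95% interval 2.36 to 2.66). Pak3 was at 101 and 19.3 CPM, a log2 ratio of 2.38 (95% interval 2.27 to 2.49). The remaining 5 of the top 10 were Car2, a carbonic anhydrase (98.4 against 20.8 CPM), Zswim6 (94.1 against 20.3), and the repressor Zbtb18, which acts in muscle differentiation (241 against 54.1). Rgs16, a regulator of G protein signalling, was at 148 against 34.1 CPM, and Rreb1, a zinc finger transcription factor, at 111 against 25.6 CPM. All 10 stood above the other cells by a log2 ratio of at least 2.12, while the median over the 7648 genes was -0.11. Most were not particular to the committed myoblasts. In cycling Myog-positive cells Olfml2b was at 183 CPM, Rspo3 at 53.1, Car2 at 79.6 and Zswim6 at 84.0 CPM. Zbtb18 was at 177, Rgs16 at 113 and Rreb1 at 74.0 CPM there. These genes were within 2-fold of the committed myoblasts, unlike Pak3 at 26.1 CPM.

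The lowest ratios belonged to 3 kinds of gene. Division genes were led by Prc1, which organises the spindle midzone (5.72 against 119 CPM, log2 ratio -4.38, 95% interval -4.84 to -3.95), with the histone genes Hist1h1b (2.93 against 59.6 CPM) and Hist1h2ap (7.72 against 119 CPM), which have close copies. Genes of fibroblast-like cells were led by Col1a1 (3.06 against 81.6 CPM, log2 ratio -4.74, 95% interval -5.396 to -4.15), with Col6a3 (12.2 against 138), the retinoid-binding protein gene Crabp1 (16.2 against 261), Tm4sf1 (3.86 against 68.97) and Areg, a ligand of the EGF receptor (10.9 against 149.7). Genes of the mature sarcomere were Mybpc1 (8.38 against 105 CPM) and Myoz1 (5.19 against 57.2 CPM). The other cells hold resting, cycling, fibroblast-like and more mature cells together, and their levels are averages over this mixture. Of 9 fibroblast genes, 0 were higher and 9 at least 2-fold lower (median log2 ratio -3.02), beside 2.31% and 15.1% of all genes. Of 3 smooth muscle genes 0 were higher and 2 lower, and of 3 neuron genes 0 were higher and 3 lower. The summed level of the smooth muscle list did not follow these counts. It was 892 CPM, against 764 CPM in the other cells and 263 CPM in resting cells. Tagln was at 12.1 against 101 CPM in the other cells, and Cnn1 had no UMI in the committed myoblasts. The sum therefore does not stand for every gene of the list. With both sides limited to cells of 15956 to 21820 UMIs, 1 of the 3 smooth muscle genes was higher and 2 lower. Of 11 genes that respond to dissociation stress 1 was higher and 2 were lower. Of 8 genes of the p53 response and apoptosis 0 were higher and 1 was lower. The lower counts of these last lists are near the share of all genes.

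**Figure D2:**
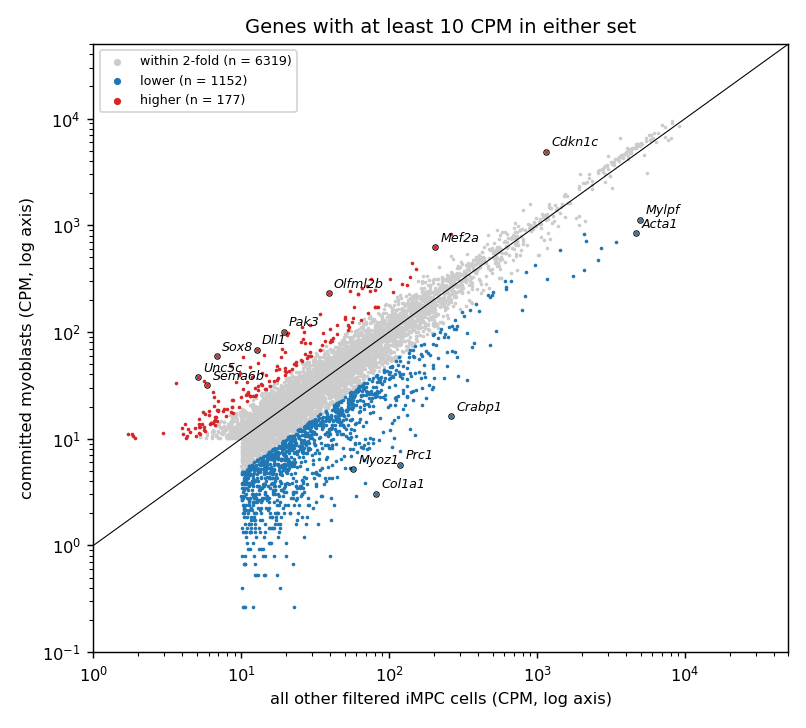
CPM of each of 7648 genes in the 395 committed myoblasts (vertical) and in the 8954 other filtered iMPC cells (horizontal), on log axes with a line at equal levels. The 177 genes at least 2-fold higher are red, the 1152 at least 2-fold lower are blue, and circled genes are named. Sox8, Dll1 and Pak3 lie above the line while Prc1, Col1a1 and Myoz1 lie far below it.

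Dll1 and Sox8 were high in Myog-positive cells with few Myh3 UMIs, whether or not these cycled. Dll1 stood at 68.4 CPM (95% interval 62.6 to 74.6) in the committed myoblasts, 64.5 CPM in cycling Myog-positive cells, 15.6 CPM in Myh3-high cells and 6.67 CPM in resting cells. Per cell it had 0 to 7 UMIs with a median of 1, and at 5000 UMIs it was found in 28.1% (95% interval 23.7 to 32.8) of committed myoblasts, 5.35% of the other cells and 4.33% of Dcn-high cells. Sox8 stood at 59.5 CPM (95% interval 54.1 to 65.2), and at 52.02, 9.504 and 2.01 CPM in the same 3 neighbouring sets. Its share at 5000 UMIs was 23.04% (95% interval 18.97 to 27.5), against 3.33% of the other cells and 1.81% of Dcn-high cells. The levels in committed and cycling cells differed by a log2 ratio of 0.08 (95% interval -0.12 to 0.29) for Dll1 and 0.19 (95% interval -0.04 to 0.43) for Sox8, and both intervals include 0.

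The guidance genes split in 2 ways. Sema6b, a membrane semaphorin, stood at 31.8 CPM (95% interval 27.9 to 36.1) with 33.7 CPM in cycling Myog-positive cells, a log2 ratio of -0.08 (95% interval -0.38 to 0.22), and at 13.8 CPM in Myh3-high and 2.01 CPM in resting cells. Unc5c stood at 37.9 CPM (95% interval 33.6 to 42.6) but at 14.2 CPM in the cycling cells, a log2 ratio of 1.41 (95% interval 1.02 to 1.82), with 7.78 CPM in Myh3-high and 2.54 CPM in resting cells. Sema6b was found in 14.9% (95% interval 11.6 to 18.8) and Unc5c in 14.4% (95% interval 11.1 to 18.3) of committed myoblasts at 5000 UMIs, against 1.44% and 1.08% of Dcn-high cells. Of the 5 markers these were found in the smallest shares of committed myoblasts. No committed myoblast had more than 4 Sema6b or 11 Unc5c UMIs.

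Mymk followed another order. It stood at 403 CPM (95% interval 389 to 418), below the 584 CPM of Myh3-high cells (log2 ratio -0.54, 95% interval -0.596 to -0.47) and above the 173 CPM of cycling Myog-positive cells (log2 ratio 1.22, 95% interval 1.11 to 1.34) and the 10.9 CPM of resting cells. A Mymk UMI was found at 5000 UMIs in 78.2% (95% interval 73.8 to 82.2) of committed myoblasts, 89.1% of Myh3-high cells, 48.6% of cycling cells and 7.58% of Dcn-high cells. In whole cells it had 0 to 34 UMIs with a median of 6. Against all other cells its log2 ratio was 0.89, and it was 2.44 when both sides were limited to cells of 15956 to 21820 UMIs, the middle range of the committed myoblasts (197 of them and 2330 others), called cells of like depth below. Myh3-high cells, which had the most Mymk, also had the highest median depth of the sets, and the part of depth in this difference was not tested.

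**Figure D3:**
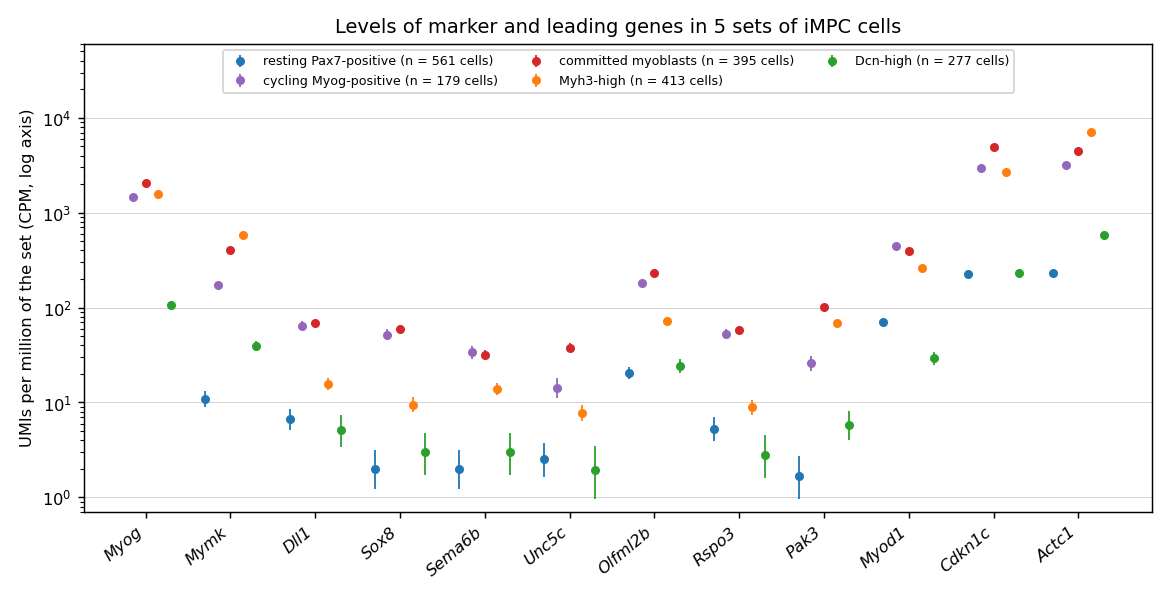
CPM of 12 genes (log axis) in 5 sets of iMPC cells, with bars for exact 95% counting intervals, which are narrower than the points for abundant genes. A gene with no UMI in a set has no point, which applies to Myog in the resting cells, where it was 0 by selection. Dll1, Sox8 and Rspo3 are alike in committed and cycling Myog-positive cells and lower in the other 3 sets, while Mymk and Actc1 are highest in Myh3-high cells.

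Among myogenic regulators, 4 of 17 genes were at least 2-fold higher than in all other cells and 3 were at least 2-fold lower, beside 2.31% and 15.1% of all genes, with a median log2 ratio of 0.195. Among cells of like depth 5 of 16 were higher and 2 lower, beside 4.42% and 18.2% of 7797 genes. Myod1, which opens the muscle program, stood at 391 CPM (95% interval 377 to 405), 442 CPM in cycling, 259 CPM in Myh3-high and 70.8 CPM in resting cells. The MADS-box factor Mef2a was at 625 CPM in committed myoblasts, above the 399 CPM of Myh3-high cells, while its relative Mef2c was at 507 CPM, below 1210 CPM. Against resting cells the 2 genes differed alike, by log2 ratios of 2.83 and 2.82, but against Myh3-high cells they differed in opposite directions, by 0.65 and -1.26. Rbm24, an RNA-binding regulator of muscle splicing, was at 442 against 143 CPM in the other cells. The homeobox gene Six4 was at 44.97 against 21.99 CPM. The 3 lower genes were Myf5, the factor of progenitors (5.72 against 41 CPM, and 60.9 CPM in resting cells), Eya1 (4.92 against 13.4 CPM) and Myf6, the late factor of fibres (1.597 against 33.2 CPM, and 49.3 CPM in Myh3-high cells). Among cells of like depth the log2 ratios were -3.81 for Myf5, -2.73 for Eya1 and -1.7 for Myf6, which there lay under 10 CPM on both sides and was not counted.

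Of 10 genes that restrain myogenic factors, 0 were at least 2-fold higher and 5 were at least 2-fold lower than in all other cells. Over all genes these shares were 2.31% and 15.1%, and the median log2 ratio of the 10 was -1.26. Against resting cells 0 were higher and 6 lower, where 8.42% of 7812 genes were higher and 20% lower. Id4 (2.39 against 49.5 CPM in resting cells), musculin (Msc, 2.93 against 20.5) and Twist1 (8.65 against 87.3) were at low levels. Id2 was not: it stood at 227 CPM, near the 254 CPM of resting cells, with 37 CPM in Myh3-high cells (log2 ratio 2.61, 95% interval 2.47 to 2.76). Id3 lay between, at 324 CPM, with 772 CPM in resting and 149.6 CPM in Myh3-high cells. Id1 was at 139 CPM in committed myoblasts and 141 CPM in resting cells, so the Id genes did not share 1 order over the sets.

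In the Notch pathway, Dll1 was higher than in all other and in resting cells, while 3 of 4 genes of the target list were lower. Over all genes, 2.31% were at least 2-fold higher and 15.1% lower than in all other cells. Against resting cells these shares were 8.42% and 20%. Of 3 ligand genes at 10 CPM or more, Dll1 was at least 2-fold higher than in all other cells, the non-canonical ligand Dlk1 was at least 2-fold lower, and Jag2 was within 2-fold (15.96 against 11.7 CPM). Among cells of like depth 2 were at least 2-fold higher and 0 lower, with log2 ratios of 2.48 for Dll1, 1.31 for Jag2 and -0.78 for Dlk1. Dlk1 stood at 64.9 CPM with 106 CPM in resting and 542 CPM in Myh3-high cells, and so was highest in the set with much Myh3, in which Dll1 was lower than in committed myoblasts. No Dll4 UMI was found in the committed myoblasts. Of 6 receptors and modulators, 0 were higher and 1 lower than in all other cells, which is near the share of all genes (15.1%). The lower gene was Notch3, at 5.32 against 35.03 CPM, while Notch1 was at 53.6 against 60.7. Of 4 target genes, Hes1 (30.5 against 146 CPM in resting cells), Hey1 (8.12 against 41.5) and Heyl (5.99 against 46.05) were at least 2-fold lower than in all other and in resting cells. Hes6, which opposes Hes1 and promotes differentiation, went the other way, at 235 against 39.3 CPM in resting cells. Summed over the target list, the level was 279.9 CPM in committed myoblasts and 280.3 CPM in resting cells. Hes6 supplied 235 CPM of the first sum and 39.3 CPM of the second. The near-equal sums therefore do not describe the other genes of the list.

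Of 20 genes of fusion and adhesion, 1 was at least 2-fold higher than in all other cells and 8 were at least 2-fold lower, beside 2.31% and 15.1% of all genes, with a median log2 ratio of -0.64. Among cells of like depth 4 of 21 were higher and 7 lower (median -0.82). The gene higher than in all other cells without regard to depth was Jam3, an adhesion molecule of the junction family, at 228 CPM (95% interval 217 to 239) against 61.6 CPM, with 128 CPM in Myh3-high and 30.3 CPM in resting cells. Mymx (myomixer), the partner of Mymk in fusion, was at 195 CPM (95% interval 185 to 205) against 115 CPM, with 352 CPM in Myh3-high and 6.56 CPM in resting cells. Among the lower genes were 2 kinds. Cav3, the muscle caveolin, was at 31.8 against 469.9 CPM in Myh3-high cells, and Dysf, a membrane repair protein, at 2.53 against 21.99. Vcam1 (8.25 against 45.1 CPM in resting cells), Boc (4.92 against 20.9) and Kirrel (2.39 against 20.6) were at higher levels in resting cells. Cdh15, or M-cadherin, was within 2-fold in all 4 comparisons, at 150.5, 148, 164 and 178 CPM in committed, resting, cycling and Myh3-high cells.

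Low Top2a was a condition of selection, so low division genes restate it in part. Of 20 mitosis genes, 0 were higher and 18 at least 2-fold lower than in all other cells, where 2.31% and 15.1% of all genes were. Their median log2 ratio was -2.24. Against cycling Myog-positive cells 0 were higher and 20 lower, where 1.3% of 7208 genes were higher and 6.7% lower. Against the resting cells, chosen with the same Top2a limit, 0 of 12 were past 2-fold in either direction. The median log2 ratio of these 12 was 0.07, and over all genes 8.42% were higher and 20% lower there. Against Myh3-high cells, which also shared that limit, 11 of 11 were at least 2-fold higher, where 7.62% of 7088 genes were higher and 9.41% lower. The proliferation gene Mki67 was at 9.71 CPM in committed myoblasts, 16.8 CPM in resting, 153 CPM in cycling and 0.628 CPM in Myh3-high cells. Birc5 was at 40.8, 40.5, 301 and 9.82 CPM, and Cdk1 at 27.1, 26.3, 356 and 11 CPM, in the same order. At 5000 UMIs, 14.7% of committed myoblasts had at least 5 UMIs of the mitosis list, against 11.8% of resting, 87.2% of cycling and 3.15% of Myh3-high cells. The limit on Top2a thus left a minority of cells with at least 5 such UMIs in both the committed and the resting set. Cells under that count can still hold RNA of the list.

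Some replication genes differed from the resting cells past 2-fold, where mitosis genes did not. Of 17 such genes, 0 were higher and 6 were at least 2-fold lower than in resting cells, beside 8.42% and 20% of all genes, with a median log2 ratio of -0.57. Lig1, the ligase that joins nascent strands, was at 10.6 against 27.9 CPM, Mcm4 of the replicative helicase at 9.84 against 22.7 and the licensing factor Cdt1 at 7.05 against 24.03. Against Myh3-high cells 10 of 13 were at least 2-fold higher, beside 7.62% of all genes, and Mcm3 was at 15.6 against 2.199 CPM. At least 5 UMIs of this list were found at 5000 UMIs in 8.86% of committed myoblasts, 19.96% of resting and 0.726% of Myh3-high cells.

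Among 12 genes of cell cycle exit, 2 were at least 2-fold higher and 4 at least 2-fold lower than in all other cells, beside 2.31% and 15.1% of all genes. Among cells of like depth 2 of 12 were higher and 4 lower, and the median log2 ratio went from -0.012 to 0.13. Cdkn1c, the inhibitor p57, was at 4873 CPM, with 2940.4 CPM in cycling, 2701 CPM in Myh3-high and 225 CPM in resting cells. Per cell it ranged from 0 to 380 UMIs with a median of 85. Its log2 ratio was 2.09 (95% interval 2.08 to 2.11) against all other cells and 0.73 (95% interval 0.7 to 0.76) against the cycling cells, which carried it as well. The retinoblastoma gene Rb1 was at 106 CPM (95% interval 99.2 to 114) against 39.8 CPM, with 10.3 CPM in resting cells. The inhibitor Cdkn1a (p21) was within 2-fold of all 4 sets, at 905 CPM against 483 CPM in resting and 1292 CPM in Myh3-high cells. The lower genes were the INK4 family members Cdkn2a (300.1 against 605 CPM), Cdkn2b (10.2 against 52.6), Cdkn2c (5.19 against 20.8) and Cdkn2d (14.1 against 59.9). The CIP/KIP member Cdkn1c and the INK4 members therefore differed in opposite directions, but Cdkn1a did not go with Cdkn1c past 2-fold.

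Sarcomere RNA was present at levels between those of resting and Myh3-high cells. This order is partly set by selection, since low Myh3 and low Ckm chose the cells. Of 16 late sarcomere genes, 16 were at least 2-fold higher than in resting cells (median log2 ratio 2.38), and of 22, 22 were at least 2-fold lower than in Myh3-high cells (median -3.15). Against cycling Myog-positive cells, which share the limits on Myh3 and Ckm, 7 of 16 were at least 2-fold higher and 0 lower (median 0.84). Over all genes, 8.42% were higher and 20% lower than in resting cells. These shares were 7.62% and 9.41% against Myh3-high cells and 1.3% and 6.7% against cycling cells. Acta1, the actin of skeletal muscle, was at 840.4 CPM in committed myoblasts, 299.6 in cycling, 244 in resting and 9738 in Myh3-high cells. The myosin light chain Mylpf was at 1123, 678, 259.8 and 10497 CPM in that order, and the giant spring protein titin (Ttn) at 1044, 786, 69.9 and 2756 CPM. Actc1, the actin first made in muscle development, was at 4441, 3164, 233 and 7141 CPM. The log2 ratio to Myh3-high cells was -0.69 for Actc1 and -3.53 for Acta1, so the committed myoblasts stood nearer to Myh3-high cells in the first actin than in the second. Levels of single actins and myosins are uncertain, because a read may come from a near copy.

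Against all other cells the sarcomere lists and those that went with them changed with depth. With all cells, 0 of 22 late sarcomere genes were higher and 20 were at least 2-fold lower (median log2 ratio -2.14), while among cells of 15956 to 21820 UMIs 4 of 17 were higher and 0 lower (median 0.46). The early and cardiac-type list went from 0 of 12 higher and 9 lower to 2 higher and 1 lower, and the calcium handling list from 0 of 14 higher and 6 lower to 8 of 12 higher and 0 lower. The muscle energy list went from 1 of 10 higher and 8 lower to 1 of 9 higher and 0 lower, and the synapse list from 1 of 7 higher and 3 lower to 2 of 6 higher and 0 lower. Over all genes the shares went from 2.31% higher and 15.1% lower to 4.42% and 18.2%. Mybpc1 moved from a log2 ratio of -3.64 to -0.84 and Myoz1 from -3.46 to -0.09. The part of depth in these differences was not tested, and the direction of the sarcomere, calcium, energy and synapse lists against all other cells changes with it. Free RNA also touched this group: at the share of 2.06% measured in barcodes of 200 to 600 UMIs, it would account for 17.0% of the Acta1 level and 14.8% of the Mylpf level in committed myoblasts, against 0.255% of Dll1 and 1.07% of Mymk.

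Genes of excitation and energy supply were likewise mostly higher than in resting cells, beside 8.42% of all genes higher and 20% lower. Of 12 calcium handling genes, 11 were at least 2-fold higher than in resting cells and 0 lower (median log2 ratio 1.72). The calcium pump Atp2a1 was at 244 against 45.6 CPM and the release channel Ryr1 at 65.7 against 18.9, while the calcium store protein Casq1 was at 10.1 against 5.29 with 189 CPM in Myh3-high cells. Of 9 muscle energy genes, 7 were at least 2-fold higher than in resting cells and 0 lower. The brain-type creatine kinase Ckb was at 276 CPM (95% interval 265 to 289), above all sets compared, with 133 CPM in the other cells, 115 in resting, 135 in cycling and 185 in Myh3-high cells. Ckm, the muscle form, was limited to 1 UMI by selection. Of 6 genes of the nerve-muscle synapse, 4 were at least 2-fold higher than in resting cells. Dok7, the adaptor that activates MuSK, was at 51.5 CPM (95% interval 46.5 to 56.9), with 0.953 CPM in resting and 31.97 CPM in Myh3-high cells. The receptor subunit gene Chrna1 had another order, with 61.5 CPM in committed myoblasts and 449 CPM in Myh3-high cells.

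**Figure D4:**
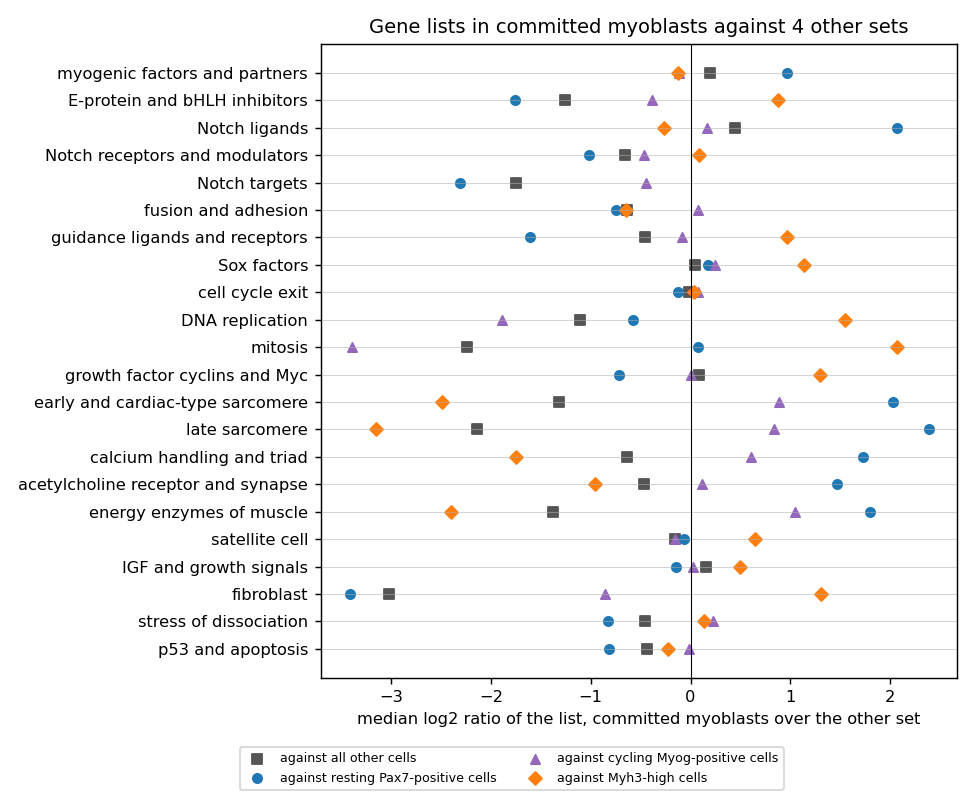
Median log2 ratio of committed myoblasts over each of 4 sets (symbols) for gene lists with at least 3 genes at 10 CPM or more. The sarcomere, calcium and energy lists lie to the right of 0 against resting and cycling cells and to the left against Myh3-high cells, and the mitosis list lies near 0 only against resting cells. The position against all other cells changes with depth for the sarcomere, calcium, energy and synapse lists, from -2.14 to 0.46 for the late genes.

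Sema6b and Unc5c were 2 of 4 guidance genes that were at least 2-fold higher than in all other cells. Of 16 guidance ligands and receptors, 4 were higher and 6 at least 2-fold lower, beside 2.31% and 15.1% of all genes, with a median log2 ratio of -0.46. Among cells of like depth 4 of 18 were higher and 10 lower (median -1.26). The other 2 higher genes were Sema3d (31.9 against 13.9 CPM) and the receptor Plxna1 (34.99 against 15.3). Sema3d was near 0 in resting cells (0.953 CPM) and at 39.6 CPM in Myh3-high cells. The related netrin receptor Unc5b had the reverse order to Unc5c, at 3.06 CPM with 47.95 CPM in resting and 161 CPM in Dcn-high cells. Slit2, a repulsive ligand, was at 3.06 against 65.4 CPM in resting cells.

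Of 6 Sox genes, 2 were at least 2-fold higher than in all other cells and 0 lower, beside 2.31% and 15.1% of all genes. The median log2 ratio of the 6 was 0.04. The 2 higher genes were Sox8 and Sox6, a regulator of fibre type, with Sox6 at 11.2 against 4.05 CPM. Sox9, a SoxE relative of Sox8, was at 53.5 against 50.6 CPM, and Sox10, the other relative, did not reach 10 CPM in either set. Among 12 satellite cell genes, 2 were higher and 2 lower, beside 2.31% and 15.1% of all genes, and the 2 lower are near the latter share. Megf10, a receptor of satellite cells, was at 60.8 CPM (95% interval 55.4 to 66.6) against 14.2 CPM, with 4.98 CPM in the resting Pax7-positive cells and 35.3 CPM in Myh3-high cells. The chemokine receptor gene Cxcr4 was at 10.6 against 4.91 CPM. Fgfr4, a receptor for fibroblast growth factors, was at 88.3 CPM, with 137 CPM in cycling and 15.6 CPM in Myh3-high cells. In the resting cells Cxcr4 was at 7.83 CPM and Fgfr4 at 71.9 CPM, both within 2-fold of the committed myoblasts, although these were chosen to have no Pax7.

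Of 12 genes of insulin-like growth factor and related signals, 1 was at least 2-fold higher than in all other cells and 2 were at least 2-fold lower. Over all genes 2.31% were higher and 15.1% lower, and the 2 lower genes are near that second share. Igf1 was at 27.3 CPM (95% interval 23.7 to 31.3) against 6.44 CPM, with 7.99 CPM in cycling, 2.54 in resting and 17.8 in Myh3-high cells. The difference from cycling cells was a log2 ratio of 1.77 (95% interval 1.26 to 2.32), like that of Unc5c and unlike those of Dll1 and Sox8. The 2 lower genes were myostatin (Mstn), the brake on muscle growth (6.79 against 98.1 CPM in Myh3-high cells), and Igfbp7 (29.9 against 227 CPM in resting cells). Among cells of like depth Mstn was at 6.77 CPM both in committed myoblasts and in the other cells, so its call against all other cells was lost there.

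Against resting Pax7-positive cells, 658 of 7812 genes were at least 2-fold higher and 1559 at least 2-fold lower, with a median over all genes of -0.13. The largest ratios were those of Pak3 (101 against 1.69 CPM, log2 ratio 5.89, 95% interval 5.18 to 6.71), Dok7, Mymk, Traf3ip3 (86.2 against 2.65 CPM) and Casz1, a zinc finger transcription factor (79.03 against 2.65 CPM). The lowest were Scg2, a secretory granule protein (0.266 against 66.4 CPM, from 2 committed myoblasts with a UMI), the PDGF receptor Pdgfrb (1.73 against 82.1), the BMP antagonist Grem1 (1.197 against 55.4), Fam129a (1.73 against 57.9) and Areg (10.9 against 334). Of 11 fibroblast genes, 11 were at least 2-fold lower (median log2 ratio -3.41), beside 20% of all genes. The 5 lowest genes named above stood at 57.3 to 1344 CPM in Dcn-high cells. The fibroblast list moved with this comparison, and its part in the other differences from resting cells was not tested.

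Against cycling Myog-positive cells, 94 of 7208 genes were at least 2-fold higher and 483 lower. Pak3 again had the largest ratio (101 against 26.1 CPM, log2 ratio 1.95, 95% interval 1.67 to 2.23), followed by slow troponin C (Tnnc1, 332 against 110.3), Acta1, the mitochondrial protein gene Chchd10 (54.4 against 19.6) and cardiac troponin T (Tnnt2, 297 against 109.7). The lowest were the mitotic kinase Aurkb (0.798 against 82.7 CPM), the histones Hist1h1b and Hist1h2ap, Prc1 and the spindle gene Nusap1 (2.39 against 91.9). Mef2c was at 507 against 240.4 CPM.

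Against Myh3-high cells, 540 of 7088 genes were at least 2-fold higher and 667 lower, with a median over all genes of 0.14. The largest ratios were those of the surface glycoprotein gene Cd200 (54.3 against 7.46 CPM, log2 ratio 2.86, 95% interval 2.54 to 3.2), Rspo3 (58.4 against 8.88), the imprinted gene Mest (327 against 51.7), Sox8 and Id2. Cd200 and Mest were at like levels in resting cells (57.4 and 292 CPM), whereas Rspo3 and Sox8 were at 5.29 and 2.01 CPM there. Among the lowest ratios were those of the stress-responsive ankyrin gene Ankrd2 (4.39 against 123), Xirp2 (2.53 against 61.9), Mybpc1 (8.38 against 201) and the fatty acid binding protein gene Fabp3 (8.25 against 195). Ribosomal protein genes took 36.0% of the UMIs of committed myoblasts and 28.0% of those of Myh3-high cells. With these and mitochondrial genes left out of the total, 968 genes were higher and 665 lower, and with the sets scaled by the median of gene ratios 387 were higher and 768 lower.

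The committed myoblasts varied among themselves with their Myh3 UMIs. By selection these ran from 0 to 9, and 93 cells had none, 188 had 1 to 3 and 114 had 4 to 9. Mylpf stood at 396 CPM (95% interval 366 to 427), 908 and 1969.7 CPM over these groups. Mef2c stood at 279 CPM (95% interval 255 to 306), 451 and 754 CPM, Mymk at 319.9, 375 and 506 CPM and Mymx at 139, 183 and 253 CPM. In the other direction, Dll1 stood at 80.4 CPM (95% interval 67.5 to 95.05), 72.1 and 54.1 CPM (95% interval 45.1 to 64.4). Sox8 stood at 69.8, 65.8 and 42.6 CPM and Unc5c at 49.9, 40.7 and 25.2 CPM. The inhibitors Id2 (285, 249 and 150.5 CPM) and Id3 (416, 333 and 243 CPM) and the receptor Fgfr4 (125, 87.4 and 63.1 CPM) had that order too. Cdkn1c, Myod1 and Pak3 differed little, with Cdkn1c at 4477, 5050.2 and 4899 CPM and Pak3 at 101, 94.9 and 109 CPM. Sema6b did not go with Dll1, at 18.8, 35.5 and 35.8 CPM. Median depth was 17158, 18564 and 20170 UMIs in the 3 groups, and its part in these orders was not tested.

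**Figure D5:**
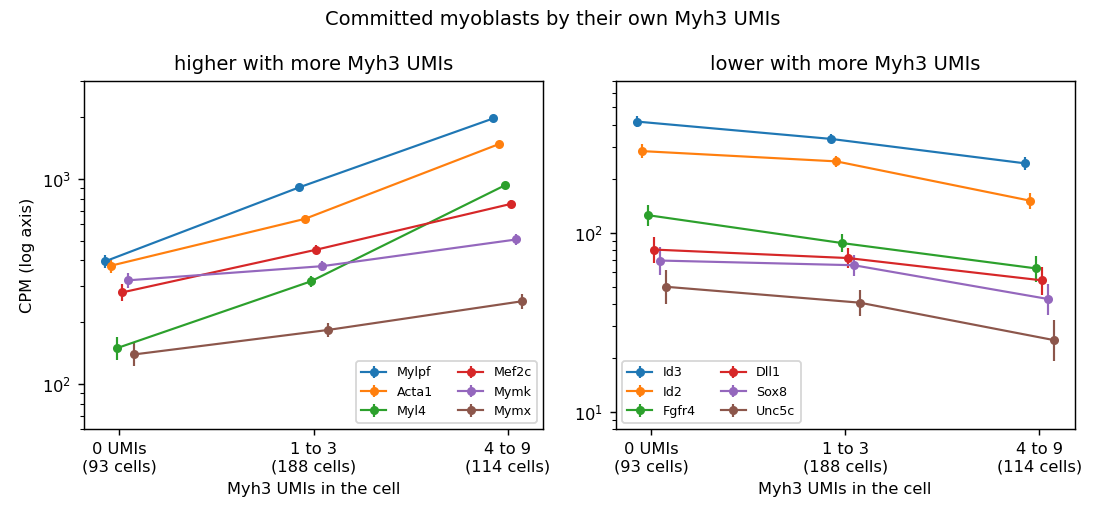
CPM (log axis) of 12 genes in the 93, 188 and 114 committed myoblasts with 0, 1 to 3 and 4 to 9 Myh3 UMIs, with exact 95% counting intervals. On the left Mylpf goes from 396 to 1970 CPM and Mef2c from 279 to 754 CPM, and on the right Id2 goes from 285 to 151 CPM and Dll1 from 80.4 to 54.1 CPM.

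Grouped by Myog instead (68 cells with 10 to 19 UMIs, 159 with 20 to 39 and 168 with 40 to 130), Cdkn1c stood at 2208, 4610.1 and 5903 CPM. Mymk stood at 224, 330.3 and 516 CPM, and Sema6b at 10.8, 29.5 and 40.1 CPM. The sarcomere genes did not have this order: Mylpf stood at 1051, 1047 and 1205 CPM and Acta1 at 1049, 891 and 736 CPM. Mymk thus had the same order in both groupings, whereas Mylpf and Acta1 had it in the grouping by Myh3 and not in that by Myog. The median depths of these groups were 16292, 17341 and 20852 UMIs, which a grouping by raw UMIs carries with it. The 66 cells with 1 Top2a UMI had 759 CPM over the mitosis list, against 366 CPM in the 329 with none, and Dll1 was at 65.9 and 68.9 CPM in them.

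Markers were also counted within the same cells at 5000 UMIs. Mymk was found in 86.5% (95% interval 78.7 to 92.2) of the 111 committed myoblasts with a Dll1 UMI and in 75% (69.5 to 79.9) of the 284 without. It was found in 91.2% (80.7 to 97.1) of the 57 cells with Unc5c and in 76.0% (71.1 to 80.5) of the 338 without. With Sox8 the shares were 75.8% (65.7 to 84.2) of 91 cells and 78.9% (73.9 to 83.4) of 304. The same cells therefore carried the ligand Dll1 and the fusion gene Mymk, and at this depth a cell without a UMI may still express the gene.

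When cells were placed by 2000 variable genes without the 5 genes of the limits or the markers, 55.8% of the 15 nearest neighbours of a committed myoblast were committed myoblasts, which made up 4.23% of all cells. Myh3-high cells took 10.7%, cycling Myog-positive cells 4.49% and resting cells 0.152% of these neighbours, and 11 committed myoblasts had no neighbour of their own set. Of 12 clusters, cluster 1 held 308 of the 395 (78.0%), together with 80 Myh3-high and 31 cycling Myog-positive cells, and 52.9% of its 582 cells were committed myoblasts. A further 43 (10.9%) lay in cluster 5, which held 235 resting Pax7-positive cells, and 20 lay in cluster 9, which held 198 Myh3-high cells. The genes that place the cells go along with those that chose them, so this is a description of the set and not separate evidence for it.

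In the fibroblast library the markers were near 0. Myog was at 0.0507 CPM, Dll1 at 0.144 CPM and Sox8 at 0 CPM over 6012 cells, and a Sox8 UMI at 5000 UMIs was found in 0 of 5761 cells (95% interval 0 to 0.0640). The limit of 3 counts puts that share at up to 0.0521%. Unc5c was at 2.33 CPM there and was found in 1.28% of cells. The libraries were filtered differently before deposit, so these levels are given side by side only. Of all filtered barcodes, 16 occurred in both libraries and 0 of these were committed myoblasts.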

How the data were processed

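The authors deposited UMI counts per gene and barcode from the 10x Genomics 3′ assay, 1 matrix per library, per the file headers. Per the submitters' processing notes, Cell Ranger 4.0 and Seurat 3.2.3 were used with the build GRCm38.p6. The iMPC matrix lists 6794880 barcodes, so the limits of depth were applied here. The labels give the fibroblasts the treatment text of the iMPC sample, and their own treatment label was used. The members and gene lists were chosen with earlier results of these data known.

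UMIs were summed over cells, and levels are counts per 1000000 UMIs of the set (CPM). Intervals are exact Poisson for levels, exact conditional for ratios and Clopper-Pearson for shares of cells. Genes needed 10 CPM on the higher side, and 2-fold was the limit of a call. A gene without UMIs in a set was counted as 3. Genes named in the text were the 5 genes of the limits, the 6 markers, the 10 largest and 10 smallest ratios against all other cells and the 5 and 5 against each neighbouring set, at 50 CPM or more, and members of the lists. A gene that this rule names is not reported here. Genes in the observations at the end were chosen after their values were seen. Shares of cells were taken after thinning to 5000 UMIs, which left out 251 fibroblasts and 0 iMPC cells. Scrublet, in scanpy 1.11.5, marked 337 of 9349 iMPC cells as doublets, of which 1 was a committed myoblast, and they were kept in the sets. Positions are from GENCODE M21, which holds 25989 of 26100 gene identifiers, and promoter sequences from RefSeq. The ratio and interval code was tested on simulated data. Python 3.11.15, numpy 2.4.6, scipy 1.17.1 and pandas 2.3.3 were used.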

Additional observations from a re-analysis of the deposited data

Results flagged for a closer look

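The iMPC matrix holds 48846 barcodes of 200 to 600 UMIs that entered no set, with a median of 430 UMIs. Markers of the committed myoblasts appeared in them above the 0.141 CPM that a count of 0 would allow. Myog was at 574.8 CPM in these barcodes, Mymk at 209.6 CPM, Dll1 at 8.469 CPM, Sema6b at 7.293 CPM, Sox8 at 3.999 CPM and Unc5c at 1.788 CPM. The ratio of the level in committed myoblasts to that in these barcodes differs between the genes, since Mymk was at 403 CPM and Sox8 at 59.5 CPM in the cells.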

How the results depend on the processing

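No paired analysis was possible because each group held 1 library. The log2 ratios of the 24 genes recomputed under 14 alternatives kept their sign. These genes were the markers, among them Myog, a gene of the limits, and those with the largest and smallest ratios in the same comparison. A change of sign was unlikely for genes chosen in this way, so the kept signs are no check of stability. The log2 ratio of Myoz1 ran from -4.38 to -0.09, the latter in the middle range of depth. List medians did not all keep their sign: against all other cells, 9 of 24 changed sign in the middle range of depth. The medians went from -2.14 to 0.46 for the late sarcomere, -1.31 to 0.28 for the early and cardiac-type sarcomere, -0.64 to 1.12 for calcium handling, -1.38 to 0.698 for muscle energy and -0.46 to 0.49 for the synapse. For growth factor cyclins and Myc the median went from 0.084 to -0.51. The Sox list went from 0.044 to -0.015, cell cycle exit from -0.012 to 0.13 and satellite cell genes from -0.15 to 0.049. The number of committed myoblasts ran from 281 (at most 3 Myh3 UMIs) to 446 (at least 5 Myog UMIs), within 1.5 times the reported 395. Of 136 alternative values for this number and the 8 counts of genes, 112 stayed within 1.5 times and 24 did not. With at least 50 CPM in place of 10, the genes at least 2-fold higher and lower were 73 and 301 against all other cells, 287 and 489 against resting cells, 16 and 136 against cycling cells and 144 and 268 against Myh3-high cells. With at least 1 CPM they were 365 and 2700, 1113 and 3148, 482 and 1237, and 1441 and 1394 in the same order. Fewer or more genes enter under these settings by construction. With mitochondrial and ribosomal protein genes left out of the total, the higher genes were 279 against all other cells, 181 against cycling cells and 968 against Myh3-high cells. Among cells within the middle range of depth they were 345, 282 and 351, and with each cell thinned to 5000 UMIs the count against cycling cells was 210 higher and 732 lower. Against cycling cells, the share of called genes that were higher went from 16.3% to 31.3% in the middle range of depth, where 40 cycling and 197 committed cells remained. The cause of these changes was not tested. Log2 ratios against all other cells ran over 14 alternatives from 2.39 to 2.55 for Dll1, 2.94 to 3.24 for Sox8, 2.28 to 2.71 for Sema6b, 2.55 to 3.05 for Unc5c and 0.69 to 2.44 for Mymk, whose extremes were the limit of 3 Myh3 UMIs and the middle range of depth. One library per group limits what can be said of either condition, and the sparse markers rest on a few UMIs per cell.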

Other observations

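Among 8146 genes with at least 10 CPM in committed myoblasts, resting Pax7-positive cells or Myh3-high cells, 77 were at least 2-fold higher in committed myoblasts than in both other sets, and 189 were at least 2-fold lower than in both. A further 209 were at least 2-fold higher than in resting cells and at least 2-fold lower than in Myh3-high cells, and 302 had the reverse order. The genes named here from the 77 were picked after their values were seen. Rspo3, Sox8 and Unc5c were among them. Esr1, the gene of estrogen receptor alpha, was at 47.8 CPM in committed myoblasts, 10.1 CPM in resting, 28.1 CPM in cycling Myog-positive and 11.2 CPM in Myh3-high cells. Greb1, a gene known to be induced by estrogen in other tissues, was at 39.6, 11.2, 24.2 and 10.8 CPM in the same sets. The secreted ligand gene Wnt4 was at 39.8, 8.79, 21.2 and 18.1 CPM, beside Rspo3, which amplifies Wnt signals. The equilibrative nucleoside transporter gene Slc29a1 was at 312, 36.1, 274 and 142 CPM. Adra2c, an adrenergic receptor gene, was at 33.3, 0.106, 14.03 and 12.4 CPM.

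The 77 genes also held some that encode nucleolar proteins, for which no list had been set up and no enrichment was computed. Nop56, a core protein of small nucleolar ribonucleoproteins, was at 166 CPM in committed myoblasts, 76.1 CPM in resting, 194 CPM in cycling Myog-positive and 62.99 CPM in Myh3-high cells. The nucleolar genes Nolc1 (121, 44.2, 138 and 56.3 CPM) and Dkc1, the pseudouridine synthase dyskerin (106, 49.2, 122 and 34.01 CPM), were likewise higher in committed and cycling cells than in the other 2 sets. Ribosomal protein genes took 36.0% of UMIs in committed myoblasts, 34.5% in resting, 32.6% in cycling and 28.0% in Myh3-high cells.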
